A study of Mus musculus with 2 samples.

Results

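The genes followed here were Cdkn1a, Cdkn1b, Cdkn1c, Cdkn2b, Cdkn2d, Rb1, Btg1 and Btg2, which encode proteins that hold back the cell cycle. They were taken by symbol, with no threshold on their counts, and make up 8 of the 31053 genes in the count matrices. The question was how their levels differ between hair cells (HCs), supporting cells (SCs) and nonsensory epithelium of the mouse utricle, and between 2 ages. Sensory epithelia were peeled off with thermolysin, dissociated with Accutase and their single cells captured in droplets for 3′ RNA sequencing at postnatal day 2 (P2) and embryonic day 14 (E14).

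The mice were labelled WT, with no transgene or treatment named, and the wild-type mice of the study were C57BL/6J, with postnatal animals of either sex. There was 1 library at each age. The study generally collected tissue from several animals at a time, so a library may pool animals that cannot be told apart. No replicate error exists for any value, and no test between groups was possible. Each level is a sum of unique molecular identifiers (UMIs, each standing for 1 captured transcript) over the cells of a class, given per 1000000 UMIs of that class (CPM). Intervals in brackets are exact 95% intervals, and they cover counting error only. Because the counts come from the 3′ end of transcripts and are not scaled by length, a level of 1 gene was compared between cells and not with that of another gene.

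The P2 library held 57003553 UMIs in 6251 barcodes and the E14 library 122892080 UMIs in 15636 barcodes. After filtering and removal of likely doublets, 3877 cells at P2 (median 9806 UMIs) and 10138 at E14 (median 6710 UMIs) were clustered without use of the 8 genes, and clusters were named from marker genes. HC-like cells numbered 1095 at P2 in 6 clusters, and 187 at E14 in 1 cluster. SC-like cells numbered 691 at P2 and 962 at E14, and nonsensory epithelial-like cells 696 at P2 and 1122 at E14, each in 4 clusters. The 18 HC markers summed to 16607 CPM in HC-like cells at P2 and 17752 CPM at E14, against at most 1011 CPM in the SC-like and nonsensory classes, and none was at 0 in HC-like cells. The SC-like label was less sharp at E14, where 13 nonsensory markers summed to 3236 CPM in SC-like cells and 13 SC markers to 3110 CPM, with none at 0. At E14 the 11 mesenchymal markers summed to 158 CPM in HC-like, 873 in SC-like and 408 in nonsensory cells, and the 7 red blood cell markers to 1724 CPM in HC-like, 6095 in SC-like and 5736 in nonsensory cells, while at P2 neither sum passed 29.8 CPM in these classes. Of these markers 1 red blood cell gene was at 0 in HC-like cells at E14. Mesenchymal cells had high Cdkn1c and Btg1 at E14, and the part of these transcripts in the E14 contrasts was not tested. A further 1362 cells at P2 and 2793 at E14 lay in clusters without a name. The 2 libraries shared 23 barcodes, of which 10 were kept in both.

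A cell commits to division when cyclin-dependent kinases (CDKs) phosphorylate the retinoblastoma protein, the product of Rb1, and release E2F transcription factors. The Cip/Kip proteins p21 (Cdkn1a), p27 (Cdkn1b) and p57 (Cdkn1c) bind cyclin-CDK complexes, and the INK4 proteins p15 (Cdkn2b) and p19 (Cdkn2d) bind CDK4 and CDK6. Btg1 and Btg2 belong to a family of antiproliferative proteins that also act on mRNA turnover. In the mouse inner ear p27 is known as a marker and regulator of the cell cycle exit of prosensory cells, while loss of Cdkn2d, of Cdkn1a together with it, or of Rb1 is known to let HCs re-enter the cell cycle.

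Promoter windows from 250 bases before to 50 bases after a transcript start were taken from RefSeq (GRCm38.p6) for 6 of the 8 genes, namely Cdkn1a (2 windows), Cdkn1b, Cdkn2b, Cdkn2d, Btg1 and Btg2. The 3 shown were picked because the results below turn on these genes: Cdkn1a and Cdkn2d were highest in different HC-like clusters, and Btg2 ran with genes induced by dissociation. They are the second Cdkn1a window (chr17:29093519-29093818, plus strand), that of Cdkn2d (chr9:21291160-21291459, minus strand) and that of Btg2 (chr1:134079106-134079405, minus strand). Capitals mark every match, on either strand, to the E-box CAGNTG, the cAMP response element TGACGTCA and the GC box GGGCGG.
Cdkn1a: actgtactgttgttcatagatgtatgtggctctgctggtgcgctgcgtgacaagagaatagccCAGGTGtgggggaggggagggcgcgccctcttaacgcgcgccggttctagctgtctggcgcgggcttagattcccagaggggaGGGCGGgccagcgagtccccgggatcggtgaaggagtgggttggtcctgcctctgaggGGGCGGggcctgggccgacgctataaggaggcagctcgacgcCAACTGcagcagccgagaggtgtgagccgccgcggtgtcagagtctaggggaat
Cdkn2d: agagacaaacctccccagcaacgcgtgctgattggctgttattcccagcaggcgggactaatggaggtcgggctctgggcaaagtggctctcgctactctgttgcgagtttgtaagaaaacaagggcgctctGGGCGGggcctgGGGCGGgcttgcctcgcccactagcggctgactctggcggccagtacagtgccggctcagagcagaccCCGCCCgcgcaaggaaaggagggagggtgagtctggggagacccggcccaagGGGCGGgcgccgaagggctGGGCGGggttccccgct
Btg2: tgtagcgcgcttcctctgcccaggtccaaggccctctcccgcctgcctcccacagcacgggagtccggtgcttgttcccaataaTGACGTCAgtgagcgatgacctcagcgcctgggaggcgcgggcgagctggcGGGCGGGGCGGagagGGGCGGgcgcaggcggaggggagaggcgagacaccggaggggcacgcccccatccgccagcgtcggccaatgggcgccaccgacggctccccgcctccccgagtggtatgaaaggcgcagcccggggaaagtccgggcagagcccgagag

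E-boxes are bound by basic helix-loop-helix factors such as ATOH1, the determinant of HC fate. The Cdkn1a window held E-boxes 187 and 4 bases before the start, and the first Cdkn1a window held 1 further match, while 51.4% of 32851 RefSeq mouse windows of this length held at least 1. The Cdkn2d window held 5 GC boxes, a motif present in 35.7% of windows, and neither of the other motifs. The Btg2 window held the cAMP response element 166 bases before its start, which 1.79% of windows held, the Cdkn2b window among them. GC boxes that overlap each other were counted as separate matches.

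Which inhibitors were higher in HCs than in SCs? At P2, Cdkn1a, Cdkn1c and Cdkn2d were at least 2-fold higher in HC-like than in SC-like cells and Cdkn1b and Btg2 at least 2-fold lower, among 7 members with at least 20 UMIs over both classes. Over all 13642 genes tested in the same way, 19.7% were at least 2-fold higher and 21.2% at least 2-fold lower, 40.9% in all. At E14 the 4 members higher were Cdkn1a, Cdkn1c, Cdkn2d and Rb1, and the 2 lower were Cdkn1b and Btg2, of 8 tested, against 17.1% higher and 22.0% lower, 39.1% in all, over 12966 genes. The direction of Cdkn1a, Cdkn1b, Cdkn1c, Cdkn2d, Rb1, Btg1 and Btg2 between HC-like and SC-like cells was the same at both ages.

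Relative to nonsensory cells, 4 of the 8 members were at least 2-fold higher in HC-like cells at P2 (Cdkn1a, Cdkn1c, Cdkn2d and Rb1) and 2 at least 2-fold lower (Cdkn2b and Btg2), where 20.7% and 23.0% of 13806 genes passed these limits, 43.7% in all. At E14 the counts were 3 higher (Cdkn1a, Cdkn2d and Rb1) and 2 lower (Cdkn2b and Btg2), where 17.5% and 23.8% of 13532 genes passed, 41.3% in all. Doublet removal bore on the E14 contrast with SC-like cells. With doublets kept, the E14 HC-like class held 371 cells and only 2 members were past 2-fold, Cdkn1a at 3.76-fold and Cdkn2d at 5.88-fold.

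**Figure D1:**
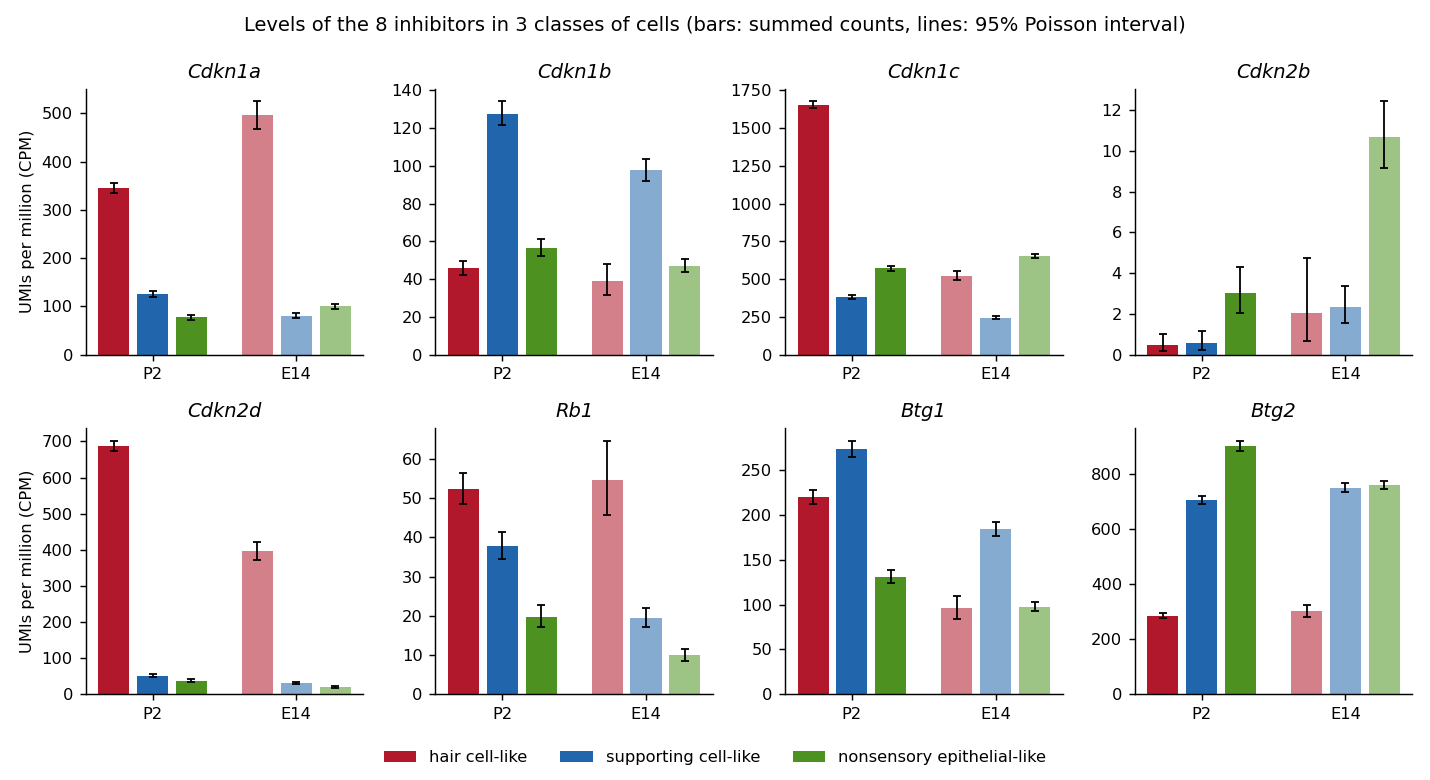
Level of each of the 8 genes (y axis, CPM, on a scale of its own for each gene) in HC-like, SC-like and nonsensory epithelial-like cells at P2 (full colour, left) and E14 (pale, right). Bars are summed counts of 1 library and lines the exact 95% Poisson interval. Cdkn1a and Cdkn2d were highest in HC-like cells at both ages, Cdkn1b in SC-like cells, and Btg2 was lowest in HC-like cells.

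Cdkn1a (ENSMUSG00000023067, chr17:29090976-29100727, plus strand) encodes p21, the inhibitor best known as a target of p53. At P2 it stood at 344 CPM in HC-like cells, against 125 in SC-like and 77.5 in nonsensory cells. At E14 it stood at 496 CPM in HC-like cells, against 80.7 in SC-like and 100 in nonsensory cells. The HC-like to SC-like ratio was 2.76 at P2 [2.60 to 2.92] and 6.15 at E14 [5.64 to 6.69], so the gap was narrower at P2. The ratio to nonsensory cells was 4.45 at P2 [4.12 to 4.802], or 11.1 with classes set by markers of single cells, and 4.96 at E14 [4.596 to 5.34], or 3.15 with doublets kept. Outside the epithelium, E14 levels were 203 CPM in immune cell-like, 36.0 in endothelial, 17.7 in mesenchymal and 16.9 in glial cells, and no UMI was found in melanocyte-like and pericyte-like cells, where the counts allow up to 8.88 and 18.9 CPM.

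HCs were not alone in carrying Cdkn1a. At E14, a nonsensory cluster of 69 cells led by Pyy and Prss56 reached 815 CPM [758 to 876], while the other 3 nonsensory clusters lay between 37.5 and 106 CPM. At P2 the Kcne1-led nonsensory cluster of 85 cells reached 369 CPM and the Penk-led cluster 3.28 CPM. The 11 p53 target genes of a fixed list summed to 411 CPM in the Pyy-led cluster and 552 CPM in the Kcne1-led cluster, against 451 CPM over all E14 nonsensory cells and 342 CPM over all P2 nonsensory cells. The part of p53 in these levels was not tested.

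Cdkn1b (ENSMUSG00000003031, chr6:134920401-134925513, plus strand) encodes p27 and was highest in SC-like cells among all named classes at each age. At P2 it stood at 45.6 CPM in HC-like cells, against 128 in SC-like and 56.5 in nonsensory cells, and at E14 at 39.1 CPM in HC-like cells, against 97.7 in SC-like and 46.9 in nonsensory cells. The HC-like to SC-like ratio was 0.357 at P2 [0.325 to 0.393] and 0.401 at E14 [0.322 to 0.494]. At E14 the ratio was 0.697 with doublets kept, 0.583 with fewer removed and 0.507 with a stricter cell filter, each inside the 2-fold limit. The HC-like and nonsensory levels differed less, at a ratio of 0.807 at P2 [0.719 to 0.906] and 0.834 at E14 [0.667 to 1.03], and the E14 ratio was above 1 with doublets kept (1.31).

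Among the P2 SC-like clusters Cdkn1b was at 180 CPM in the Tectb-led cluster, 128 and 126 CPM in the clusters led by Gjb6 and Fndc7, and 67.5 CPM in the cluster led by 1500015O10Rik. Among the 6 HC-like clusters at P2 it ranged between 14.9 and 83.4 CPM, lowest in the Ocm-led and highest in the Hsd11b2-led cluster. In the other E14 classes it lay between 16.9 CPM in endothelial-like and 55.4 CPM in melanocyte-like cells. The intervals of melanocyte-like, nonsensory, pericyte-like, glial and mesenchymal cells overlapped one another.

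Cdkn1c (ENSMUSG00000037664, chr7:143458339-143461050, minus strand) encodes p57 and is an imprinted gene expressed from the maternal allele. At P2 it stood at 1655 CPM in HC-like cells, against 381 in SC-like and 571 in nonsensory cells. At E14 it stood at 522 CPM in HC-like cells, against 246 in SC-like and 652 in nonsensory cells. HC-like cells therefore had 2.90 times the nonsensory level at P2 [2.82 to 2.98] and 0.801 times that level at E14 [0.756 to 0.849]. Against SC-like cells the ratio was 4.34 at P2 [4.21 to 4.48] and 2.12 at E14 [1.99 to 2.27].

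The E14 call for Cdkn1c between HC-like and SC-like cells depended on the processing. The ratio was 1.25 with doublets kept, 1.67 with fewer removed, 1.91 at a finer clustering, 1.46 with classes set by markers of single cells, and 1.93 without mitochondrial, ribosomal protein and haemoglobin genes in the total. With classes set by markers of single cells, the P2 ratio was 8.08 to SC-like and 4.46 to nonsensory cells. Cdkn1c was also abundant outside the sensory epithelium, at 859 CPM in mesenchymal cell-like cells at E14, with 1699 CPM in an Aspn-led cluster of 489 cells. It was lowest at E14 in immune cell-like (48.3 CPM), melanocyte-like (60.2 CPM) and red blood cell-like cells (61.3 CPM), whose intervals overlapped.

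Cdkn2b (ENSMUSG00000073802, chr4:89306299-89311039, minus strand) encodes p15 and was nearly silent in the sensory cells. HC-like cells held 6 UMIs at P2 (0.459 CPM) and 5 at E14 (2.04 CPM), and SC-like cells 7 at P2 (0.559 CPM) and 28 at E14 (2.33 CPM). Nonsensory cells held 31 UMIs at P2 (3.02 CPM) and 172 at E14 (10.7 CPM). Of these 172 UMIs, 167 came from a Ttr-led cluster of 223 cells, also marked by Wnt4 and Otx2, where Cdkn2b was at 75.5 CPM [64.5 to 87.9]. In every other cluster of either library it was at 6.95 CPM or less. The HC-like to nonsensory ratio was 0.152 at P2 [0.0519 to 0.370] and 0.190 at E14 [0.0610 to 0.453], and thus rests on that cluster at E14.

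Cdkn2d (ENSMUSG00000096472, chr9:21288410-21291407, minus strand) encodes p19 and had the widest HC-like to SC-like gap of the 8 genes at both ages. At P2 it stood at 688 CPM in HC-like cells, against 50.1 in SC-like and 36.9 in nonsensory cells. At E14 it stood at 397 CPM in HC-like cells, against 29.98 in SC-like and 19.7 in nonsensory cells. The HC-like to SC-like ratio was 13.7 at P2 [12.6 to 14.9] and 13.2 at E14 [11.7 to 15.0], and the ratio to nonsensory cells 18.6 at P2 [16.8 to 20.7] and 20.1 at E14 [17.7 to 22.9]. The ratio to SC-like cells ranged from 7.07 to 17.5 at P2 and from 5.88 to 16.2 at E14 over the alternatives. The lowest values came with classes set by single-cell markers at P2 and with doublets kept at E14, which also gave ratios to nonsensory cells of 11.9 at P2 and 11.1 at E14.

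With each cell thinned to 4000 UMIs, a Cdkn2d UMI was found in 80.8% of HC-like cells at P2, against 15.98% of SC-like and 14.9% of nonsensory cells. At E14 the shares were 67.4% of HC-like cells, against 11.3% of SC-like and 6.08% of nonsensory cells. Without thinning the shares were 85.9% of HC-like, 47.5% of SC-like and 39.1% of nonsensory cells at P2, with median depths of 13976, 11551 and 11192 UMIs. At E14 they were 83.4% of HC-like, 24.6% of SC-like and 19.96% of nonsensory cells, with median depths of 14209, 7642 and 9891 UMIs. Thinning left out 289 HC-like, 40 SC-like and 73 nonsensory cells at P2, and 15 HC-like, 309 SC-like and 118 nonsensory cells at E14. As a guide to free RNA, 0 of 28 thinned red blood cell-like cells at E14 held one, which leaves a share of up to 12.3% by the exact interval, and 10.7% did without thinning, at a median of 10937 UMIs. HC-like cells made up 28.2% of the kept P2 cells and contributed 84.7% of the Cdkn2d UMIs, and at E14 they made up 1.84% of the cells and contributed 28.6% of those UMIs. In the remaining E14 classes Cdkn2d lay between 11.7 CPM in red blood cell-like and 82.0 CPM in pericyte-like cells.

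Rb1 (ENSMUSG00000022105, chr14:73183673-73325822, minus strand) encodes the retinoblastoma protein. At P2 it stood at 52.5 CPM in HC-like cells, against 37.8 in SC-like and 19.8 in nonsensory cells, and at E14 at 54.6 CPM in HC-like cells, against 19.4 in SC-like and 9.84 in nonsensory cells. Against SC-like cells the ratio was 1.39 at P2 [1.24 to 1.57] and 2.82 at E14 [2.26 to 3.50], with 1.68 at E14 when doublets were kept. The ratio to nonsensory cells was 2.66 at P2 [2.27 to 3.12], or 1.93 with classes set by single-cell markers, and 5.55 at E14 [4.38 to 7.04], or 2.83 with doublets kept. HC-like cells were the highest named class at E14, and every other class there lay at 26.9 CPM or less. The Rb1 locus overlaps Lpar6 and Rcbtb2 on the other strand, and on its own strand it overlaps Gm17233, which had 3 UMIs at P2 and 0 at E14.

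**Figure D2:**
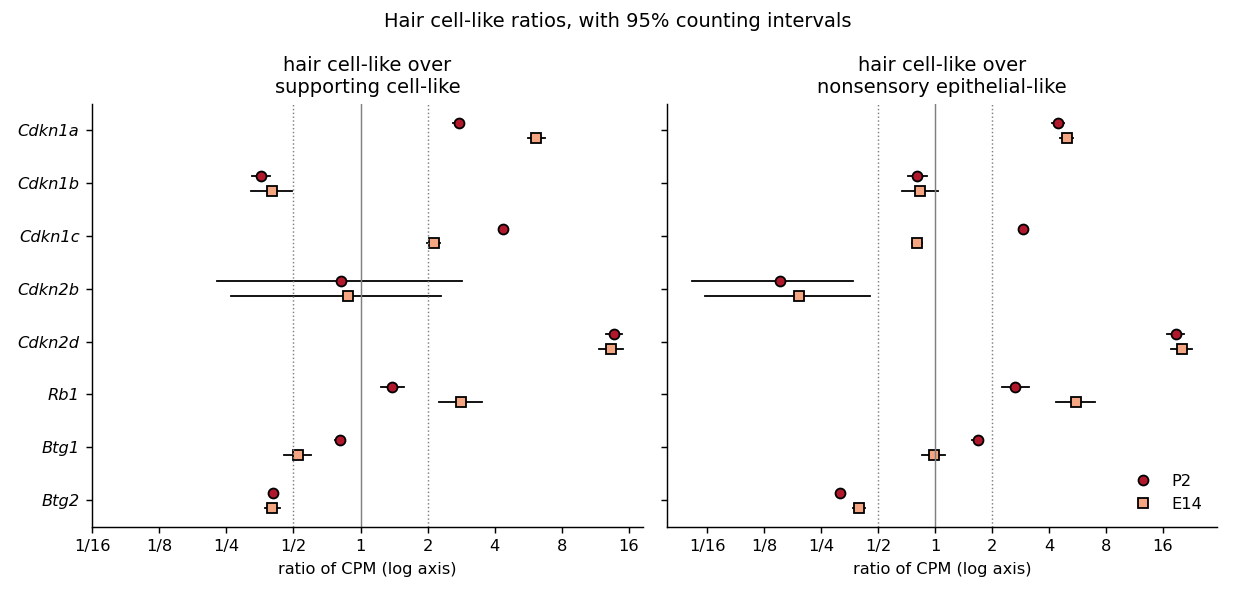
Ratio of CPM in HC-like cells over SC-like cells (left) and over nonsensory epithelial-like cells (right) on a log axis for each gene, at P2 (circles, upper of each pair) and E14 (squares, lower), with exact 95% counting intervals as lines. The solid grey line marks equality and the dotted lines 2-fold. Cdkn2d lay farthest to the right in both panels, and Cdkn1c lay on opposite sides of equality at the 2 ages in the right panel.

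Btg1 (ENSMUSG00000036478, chr10:96617006-96622809, plus strand) stood at 221 CPM in HC-like cells at P2, against 274 in SC-like and 131 in nonsensory cells. At E14 it stood at 96.2 CPM in HC-like cells, against 184 in SC-like and 97.4 in nonsensory cells. The HC-like to SC-like ratio was 0.805 at P2 [0.766 to 0.846] and 0.523 at E14 [0.455 to 0.598], just inside the 2-fold limit. The ratio to nonsensory cells was 1.68 at P2 [1.57 to 1.79] and 0.988 at E14 [0.858 to 1.13]. The E14 ratio to SC-like cells passed that limit at 0.476 when each cell had the same weight, at 0.475 without mitochondrial, ribosomal protein and haemoglobin genes, and at 0.488 without SC-like clusters led by cycling genes. The highest E14 levels were those of pericyte-like (395 CPM), mesenchymal cell-like (293 CPM) and glial cell-like cells (281 CPM), and the intervals of the mesenchymal and glial levels overlapped.

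Btg2 (ENSMUSG00000020423, chr1:134075170-134079120, minus strand) is a gene of the immediate early response. At P2 it stood at 285 CPM in HC-like cells, against 708 in SC-like and 903 in nonsensory cells, and at E14 at 302 CPM in HC-like cells, against 751 in SC-like and 761 in nonsensory cells. Relative to SC-like cells the ratio was 0.403 at P2 [0.388 to 0.419] and 0.402 at E14 [0.372 to 0.433], and the ratio to nonsensory cells 0.316 at P2 [0.304 to 0.328] and 0.397 at E14 [0.368 to 0.427]. The 2-fold limit was no longer passed against SC-like cells at E14 with doublets kept (0.748) or fewer removed (0.537), nor at P2 with classes set by single-cell markers (0.728). It was also no longer passed against nonsensory cells at E14 with doublets kept (0.617) or at a coarser clustering (0.571).

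Genes that dissociation is known to induce moved with Btg2. Of the 14 such genes of a fixed list, among them Fos, Jun and Egr1, 13 were at least 2-fold lower in HC-like cells in each of the 4 comparisons with SC-like and nonsensory cells. Their summed level was 1534 CPM in HC-like cells at P2, against 9992 in SC-like and 10916 in nonsensory cells, and 1453 CPM in HC-like cells at E14, against 8643 in SC-like and 8411 in nonsensory cells. None of the 14 genes was at 0 in these classes. Over the 45 clusters of at least 50 cells, which share their libraries and the dissociation, Btg2 followed the summed level with a Pearson r of 0.90 on the log2 scale, while r lay between -0.55 for Cdkn2d and 0.45 for Cdkn1b among the other members. The part of dissociation in the Btg2 levels was not tested.

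**Figure D3:**
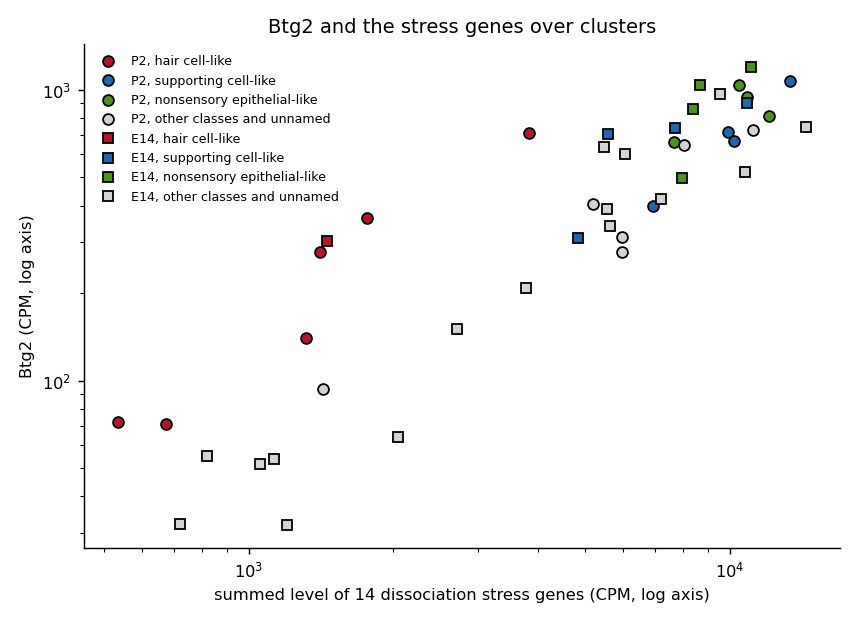
Btg2 (y axis, CPM, log axis) against the summed level of 14 dissociation stress genes (x axis, CPM, log axis), 1 point per cluster of at least 50 cells, 45 in all. Circles are P2 and squares E14 clusters, coloured by class. HC-like clusters lay to the left of the SC-like and nonsensory clusters, and the Hsd11b2-led HC-like cluster (713 CPM of Btg2) lay nearest to them.

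Within the P2 HC-like class the levels of Cdkn1a, Cdkn1c and Cdkn2d differed widely from cluster to cluster. Ordered by Atoh1, the transcription factor that starts HC differentiation, the clusters were led by Hsd11b2 (72 cells, 352 CPM of Atoh1), Grp (175 cells, 314 CPM), Nppa (302 cells, 164 CPM), Lbx2 (363 cells, 96.5 CPM), Ocm (61 cells, 13.9 CPM) and Spp1 (122 cells, 10.3 CPM). Cells of the Lbx2-led cluster were shallow (median 1755 UMIs), and the medians of the others lay between 13186 and 19994. All 6 expressed the HC determinant Pou4f3, at 568 to 936 CPM, against 10.3 to 87.5 CPM in the SC-like clusters at P2. Otof, the otoferlin gene of HC synapses, was at 78.0 CPM in the Hsd11b2-led, 482 CPM in the Grp-led and 1475 CPM in the Spp1-led cluster.

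Cdkn1a was at 1052 CPM in the Hsd11b2-led, 591 in the Grp-led, 194 in the Nppa-led, 309 in the Lbx2-led, 26.9 in the Ocm-led and 31.6 in the Spp1-led cluster. Cdkn1c was at 3787 CPM in the Hsd11b2-led, 2732 in the Grp-led, 1182 in the Nppa-led, 2181 in the Lbx2-led, 37.9 in the Ocm-led and 70.9 in the Spp1-led cluster. Both genes were thus highest in the 2 clusters with the most Atoh1 and lowest in the Ocm-led and Spp1-led clusters. In between, the order departed from that of Atoh1. The Lbx2-led cluster had less Atoh1 than the Nppa-led cluster but more Cdkn1a and Cdkn1c. In the Ocm-led and Spp1-led clusters the levels of Cdkn1a were below those of every SC-like cluster at P2, and those of Cdkn1c below every SC-like and nonsensory cluster. For Cdkn1a the highest level was 39.1 times the lowest.

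Cdkn2d was lowest where Cdkn1a and Cdkn1c were highest, at 74.3 CPM in the Hsd11b2-led, 265 in the Grp-led, 840 in the Nppa-led, 739 in the Lbx2-led, 936 in the Ocm-led and 1344 in the Spp1-led cluster. The orders were not exact mirror images, since Cdkn2d was highest in the Spp1-led cluster and Cdkn1c was lowest in the Ocm-led cluster. The Cdkn1a levels of the Ocm-led and Spp1-led clusters lay close together. In the Hsd11b2-led cluster its level overlapped that of the Tectb-led SC-like cluster (72.7 CPM). Rb1 ranged between 33.5 CPM in the Hsd11b2-led and 67.0 CPM in the Spp1-led cluster, and Btg2 between 713 CPM in the Hsd11b2-led and 70.7 CPM in the Ocm-led cluster. The dissociation stress genes also differed, with summed levels of 3829 CPM in the Hsd11b2-led, 1759 in the Grp-led, 1404 in the Nppa-led, 1317 in the Lbx2-led, 673 in the Ocm-led and 536 CPM in the Spp1-led cluster, and their part was not tested. An unnamed P2 cluster of 172 shallow cells, which had 5 HC markers, held Cdkn1a at 6.84, Cdkn1c at 162 and Cdkn2d at 196 CPM.

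**Figure D4:**
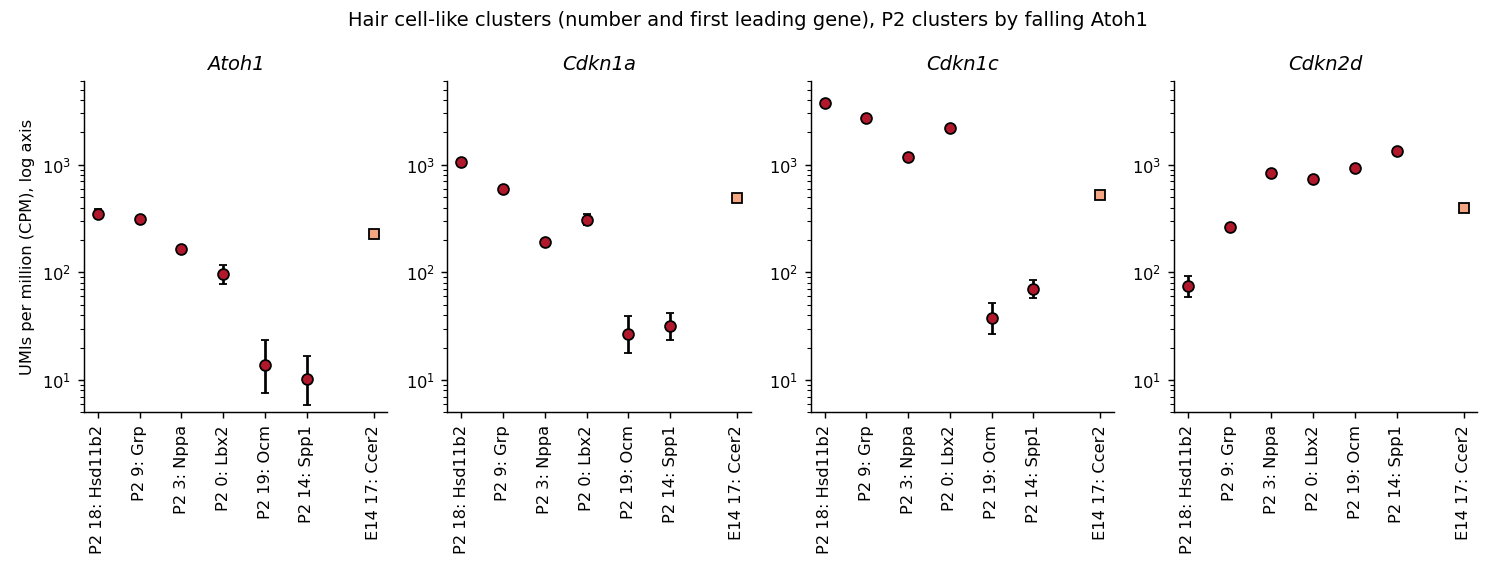
Level of Atoh1, Cdkn1a, Cdkn1c and Cdkn2d (y axis, CPM, log axis) in the 6 HC-like clusters at P2 (circles, named by number and first leading gene and ordered by their Atoh1 level) and in the HC-like cluster at E14 (square), with exact 95% Poisson intervals. Cdkn1a and Cdkn1c were lowest in the Ocm-led and Spp1-led clusters, and Cdkn2d was lowest in the Hsd11b2-led cluster.

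The same directions were seen when HC-like cells were split by their own Atoh1 UMIs. At P2 these are cells of the clusters above, so this split is not independent of the cluster order. This split was added after the cluster levels had been seen, and Atoh1 UMIs are a range and not a cell type. Each cell was thinned to 4000 UMIs, which left out 289 shallower HC-like cells at P2 and 15 at E14. Most cells of the Lbx2-led cluster (363 cells, median 1755 UMIs) were below that depth. The P2 bins therefore under-represent this cluster, which departed from the Atoh1 order above. At P2 Cdkn1a was at 220 CPM in 489 cells with no Atoh1 UMI, 484 in 274 cells with 1 or 2, and 674 in 43 cells with 3 or more. Cdkn1c was at 1145, 2251 and 2942 CPM in these bins, and Cdkn2d at 899, 493 and 355 CPM. The ratio of the highest bin to the bin with none was 3.06 for Cdkn1a [2.47 to 3.77], 2.57 for Cdkn1c [2.33 to 2.83] and 0.395 for Cdkn2d [0.301 to 0.509].

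At E14, where HC-like cells formed 1 cluster, Cdkn1a was at 455 CPM in 84 cells with no Atoh1 UMI, 549 in 71 cells with 1 or 2, and 824 in 17 cells with 3 or more. Cdkn1c was at 298, 732 and 838 CPM in the same bins, and Cdkn2d at 470, 447 and 206 CPM. The ratio of the highest bin to the bin with none was 1.81 for Cdkn1a [1.31 to 2.47], 2.82 for Cdkn1c [2.00 to 3.94] and 0.438 for Cdkn2d [0.234 to 0.757], the same directions as at P2. For Cdkn1b, Rb1 and Btg1 the intervals of this ratio included 1 at both ages, and for Btg2 it was 1.94 at P2 [1.51 to 2.47] and 1.29 at E14 [0.786 to 2.04]. The bins also differed in other genes. Sox2, an SC marker, was at 1.43 at P2 [1.16 to 1.76] and 1.90 at E14 [1.27 to 2.78]. Fos, a dissociation stress gene, was at 1.60 at P2 [1.26 to 2.01] and 0.928 at E14 [0.611 to 1.37]. Otof was at 0.394 at P2 and 0.214 at E14. The part of these differences was not tested.

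**Figure D5:**
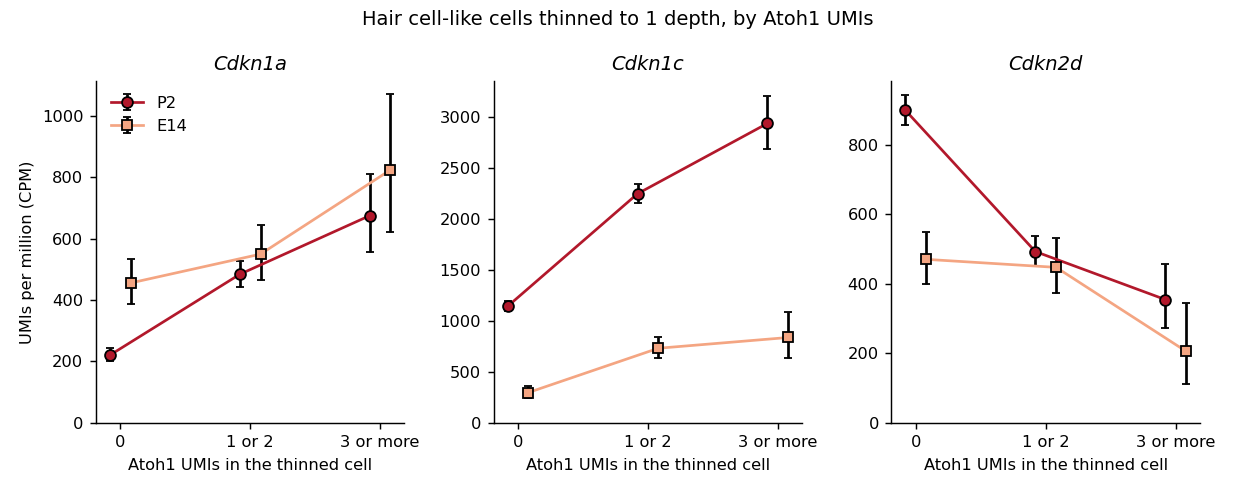
Level of Cdkn1a, Cdkn1c and Cdkn2d (y axis, CPM) in HC-like cells with 0, 1 or 2, and 3 or more Atoh1 UMIs (x axis) after thinning to 4000 UMIs per cell, at P2 (circles) and E14 (squares), with exact 95% Poisson intervals. Cdkn1a and Cdkn1c were higher, and Cdkn2d lower, in the bin with 3 or more Atoh1 UMIs than in the bin with none at both ages.

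Detection in the same thinned cells, also added after the levels had been seen, gave a matching split at P2. At E14 the directions were the same, but the intervals of the Cdkn2d shares overlapped. This held between cells with and without Cdkn1a and between cells with and without Cdkn1c. At P2 a Cdkn2d UMI was found in 67.9% of the 420 HC-like cells with Cdkn1a [63.2 to 72.3] and in 94.8% of the 386 without [92.1 to 96.8]. A Cdkn1c UMI was found in 94.5% of the cells with Cdkn1a [91.9 to 96.5] and in 51.3% of those without [46.2 to 56.4]. At E14 a Cdkn2d UMI was found in 62.1% of 124 cells with Cdkn1a [52.9 to 70.7] and 81.2% of 48 without [67.4 to 91.1], and a Cdkn1c UMI in 66.1% of the cells with Cdkn1a and 22.9% of those without. UMIs of both Cdkn1a and Cdkn2d were found in 285 cells at P2. With Cdkn1c in place of Cdkn1a, the P2 shares with Cdkn2d were 74.5% of cells with Cdkn1c [70.7 to 77.9] and 98.6% of those without [95.9 to 99.7]. At E14 they were 62.4% [51.7 to 72.2] and 73.4% [62.3 to 82.7]. A Cdkn2d UMI was also found in 15.98% of thinned SC-like cells at P2 and 11.3% at E14. Whether these UMIs were free RNA or came from the SC-like cells was not tested. A UMI in a cell was therefore not taken as a sure sign of expression.

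How did the levels differ between the ages? In HC-like cells 2 of 7 tested members were at least 2-fold higher at P2, Cdkn1c at 3.17-fold [2.99 to 3.35] and Btg1 at 2.29-fold [2.01 to 2.63], and 0 were at least 2-fold lower, where 8.77% and 5.58% of 12445 genes passed these limits, 14.4% in all. Btg1 was at 1.80-fold with doublets kept, 1.94-fold with fewer removed, 1.67-fold at a coarser clustering and 1.94-fold with classes set by single-cell markers. Cdkn2d was at 1.73-fold [1.62 to 1.85] and Cdkn1a at 0.695-fold [0.652 to 0.741] at P2 over E14. Intervals of the remaining members included 1, with Cdkn1b at 1.17-fold [0.938 to 1.46], Rb1 at 0.961-fold [0.798 to 1.17] and Btg2 at 0.946-fold [0.874 to 1.02]. With doublets kept Cdkn2d was at 3.03-fold, Rb1 at 1.70-fold and Btg2 at 0.582-fold, and Cdkn1a (1.34-fold) and Cdkn1b (0.729-fold) turned direction. Cdkn2d was also past 2-fold with fewer doublets removed (2.05-fold) and at a coarser clustering (2.33-fold).

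The P2 average over HC-like cells mixes clusters of very different level, as shown above. With the 6 P2 clusters given the same weight, the ratios of P2 to E14 were 3.19 for Cdkn1c, 2.14 for Btg1, 1.76 for Cdkn2d and 0.741 for Cdkn1a. The E14 HC-like cluster, at 226 CPM of Atoh1, held 522 CPM of Cdkn1c, less than the 1182 to 3787 CPM of the 4 P2 clusters with more than 90 CPM of Atoh1. The median depth of HC-like cells was 13976 UMIs at P2 and 14209 UMIs at E14.

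In SC-like cells 0 of 8 members were at least 2-fold higher at P2 and 1, Cdkn2b, was lower (0.240-fold, on 7 UMIs at P2 and 28 at E14), where 11.4% and 10.2% of 13516 genes passed, 21.6% in all. Rb1 was at 1.95-fold [1.66 to 2.29], Cdkn2d at 1.67-fold [1.47 to 1.91], Cdkn1a at 1.55-fold [1.43 to 1.68], Cdkn1c at 1.55-fold [1.48 to 1.62] and Cdkn1b at 1.31-fold [1.21 to 1.41] at P2 over E14. Cdkn2d passed the limit at 2.50-fold with a stricter cell filter, 2.14-fold at a coarser clustering, 2.14-fold with classes set by single-cell markers and 2.05-fold without SC-like clusters led by cycling genes, but was at 0.942-fold with fewer doublets removed. Cdkn1c was at 0.885-fold with doublets kept, 0.922-fold with fewer removed and 0.772-fold with classes set by single-cell markers, and Cdkn1a at 1.02-fold with each cell weighted alike. Btg1 was at 1.49-fold [1.41 to 1.57] and Btg2 at 0.943-fold [0.915 to 0.971], or 0.533-fold with classes set by single-cell markers.

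In nonsensory cells 1 of 8 members was at least 2-fold higher at P2, Rb1 at 2.01-fold [1.62 to 2.49], and 1 lower, Cdkn2b at 0.282-fold [0.186 to 0.415], where 11.8% and 10.6% of 13809 genes passed, 22.3% in all. The Cdkn2b value rests on the Ttr-led E14 cluster, which held 167 of the 172 UMIs of E14 nonsensory cells. At P2 the nonsensory clusters lay between 1.10 and 3.55 CPM of Cdkn2b, and no ratio without the Ttr-led cluster is given. The Rb1 value lay at the limit and was between 1.68-fold and 2.09-fold over the alternatives. Cdkn2d was at 1.87-fold [1.61 to 2.18], or 3.02-fold with each cell weighted alike, and Cdkn1a was at 0.774-fold [0.710 to 0.843]. The Cdkn1a value leans on the Pyy-led E14 cluster of 69 cells, which held 755 of the 1607 UMIs of E14 nonsensory cells. Btg1 was at 1.35-fold [1.25 to 1.45], Cdkn1b at 1.20-fold [1.08 to 1.34], Btg2 at 1.19-fold [1.16 to 1.22] and Cdkn1c at 0.876-fold [0.848 to 0.905].

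Most cyclin and CDK genes tested were at least 2-fold lower in HC-like than in SC-like cells, but Cdk4 did not reach that limit. Of 12 cyclins and CDKs, 11 were at least 2-fold lower in HC-like than in SC-like cells at E14, with a median log2 ratio of -3.30, against -0.01 over all genes tested. The E14 SC-like class included a Ube2c-led cluster of 176 cells with Ccna2, Cdk1 and Ccnb1 among its leading genes. At P2, 6 of 8 tested were lower and 1 higher, with a median of -2.63, against 0.02 over all genes. The one higher was Ccne2, at 1.53 CPM in HC-like and 0.479 CPM in SC-like cells. Ccnd1, the cyclin D1 gene, was at 21.6 CPM in HC-like and 353 CPM in SC-like cells at P2, and at 30.2 CPM in HC-like and 354 CPM in SC-like cells at E14. Cdk4, which did not pass the limit and was named after its values were seen because p15 and p19 bind the kinase, was at 271 CPM in HC-like and 242 CPM in SC-like cells at P2, and at 452 CPM in HC-like and 548 CPM in SC-like cells at E14.

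Of 12 genes of the G2/M phase all 12 were at least 2-fold lower in HC-like than in SC-like cells at E14, with a median log2 ratio of -4.24. A Ube2c-led SC-like cluster of 176 cells held 7642 of the 9854 UMIs of these genes in that class. The remaining E14 SC-like clusters had summed levels between 105 and 503 CPM. At P2 the direction was the other way at a low level, with 5 of 9 tested higher in HC-like cells (Cenpf, Birc5, Nusap1, Tpx2 and Plk1), 1 lower (Cdc20) and a median of 1.41. All 12 were also lower at P2 than at E14 in SC-like cells (median -5.63) and in nonsensory cells (median -3.68). At P2 their summed level was 38.4 CPM in HC-like, 16.6 in SC-like and 39.2 in nonsensory cells, against 51.8 CPM in HC-like, 821 in SC-like and 389 in nonsensory cells at E14. A Pclaf-led P2 cluster of 35 cells stayed unnamed and was counted in none of these classes. It held 1273 UMIs of the G2/M genes (2467 CPM), against 403 UMIs in the P2 nonsensory class. The contrasts between ages thus also depend on which cycling clusters were named. Among 8 further inhibitors and pocket proteins, 2 of 5 tested were lower in HC-like than in SC-like cells at P2 (Rbl1 and Tob1) and 3 of 7 at E14 (Cdkn2c, Rbl1 and Cdkn3), while Tob2 was higher at E14. Of 10 E2F and dimerization partner genes, 5 were lower at E14 and 1 of the 8 tested (E2f5) at P2, and Tfdp2 was higher at both ages. Over all genes 19.7% were higher and 21.2% lower at P2, and 17.1% higher and 22.0% lower at E14.

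Other lists for this pathway gave mixed counts between HC-like and SC-like cells, to be read against the same shares over all genes. Of 12 S phase genes 8 were lower and 1 (Mcm6) higher at E14, and 4 of 11 tested were lower and Mcm6 higher at P2. Of 10 tested p53 targets, 3 were lower and 0 higher at P2, and 4 were lower and 1 (Zmat3) higher at E14, with median log2 ratios of 0.12 at P2 and -0.18 at E14, near those of all genes. Of 6 genes of p27 turnover, Fbxw7 was lower at P2, and at E14 Cks1b was lower and Cul4a higher. Of 9 tested imprinted growth genes 6 were lower and 0 higher at each age. Meg3, a maternally expressed RNA, was at 19.6 CPM in HC-like and 548 CPM in SC-like cells at P2. Other members of the list lay on the same side as Cdkn1c without passing the limit: Kcnq1ot1, an RNA of the same imprinted locus, was at 1.62-fold at P2 and 1.29-fold at E14, and Ndn at 1.34-fold at P2 and 1.38-fold at E14. In HC-like cells Kcnq1ot1 was at 2.24-fold at P2 over E14. These 2 genes were named after their values were seen.

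Within classes that still cycled at E14, cells with at least 2 UMIs of 10 cycling genes were set against cells with none, after thinning to 4000 UMIs. Cdkn2d was higher in cycling cells, at 2.42-fold in SC-like cells [1.50 to 3.89] and 3.53-fold in mesenchymal cells [2.87 to 4.35], with 1.41-fold in nonsensory cells [0.633 to 2.82]. Cdkn1a was lower in cycling cells, at 0.370-fold in SC-like cells [0.230 to 0.570] and 0.447-fold in nonsensory cells [0.295 to 0.651], with 1.30-fold in mesenchymal cells [0.915 to 1.81]. The nonsensory class included the Pyy-led cluster, at 815 CPM of Cdkn1a and only 41.0 CPM of the G2/M genes. Its part in the nonsensory value was not tested. The SC-like class included the Ube2c-led cluster, which had the highest Cdkn2d (62.8 CPM) and the lowest Cdkn1a (14.0 CPM) of the E14 SC-like clusters. The mesenchymal class included a Hist1h1b-led cluster with Cdkn2d at 94.7 CPM, the highest of its clusters. The part of these clusters in the SC-like and mesenchymal values was not tested either. Btg2 was at 0.636-fold in SC-like, 0.578-fold in nonsensory and 0.527-fold in mesenchymal cells, with intervals below 1. Btg1 was at 0.553-fold in SC-like, 0.704-fold in nonsensory and 0.729-fold in mesenchymal cells, also with intervals below 1. Cdkn1c was at 0.633-fold in nonsensory [0.549 to 0.726] and 0.738-fold in mesenchymal cells [0.697 to 0.782], and at 1.19-fold in SC-like cells [0.987 to 1.43]. The intervals of Cdkn1b and Rb1 included 1 in all 3 classes. Cdkn2d in the cycling SC-like cells was 55.9 CPM, below the 397 CPM of E14 HC-like cells.

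Genes with the pattern most like that of each member were taken over the same 45 clusters by Pearson correlation of log2(CPM + 10), among 12917 genes. Cdkn2d was most like 1700024G13Rik (r = 0.95), 1700001C02Rik (0.95) and 2410004P03Rik (0.95), Rb1 like Dnah11 (0.89), Shank2 (0.88) and Aftph (0.87), and Cdkn2b like Slc6a15 (0.92), A2m (0.85) and Ttr (0.84). Cdkn1b was most like Socs6 (0.84), St6galnac2 (0.81) and Trnt1 (0.81), Cdkn1c like Nrep (0.77), Ntmt1 (0.74) and Ypel1 (0.74), and Cdkn1a like Mafa (0.73), Taldo1 (0.71) and Clint1 (0.71). Btg2 was most like Egr1 (0.92), Fos (0.90) and Nr4a1 (0.89), which are on the dissociation stress list, and Btg1 like Apod (0.66), Slc29a1 (0.65) and Tbkbp1 (0.63). Among the members themselves the highest r was 0.75, between Cdkn2d and Rb1, and that of Cdkn1a with Cdkn1c was 0.23. Clusters of a library share its free RNA and depth, so these values are descriptions.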

How the data were processed

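Per the labels and methods, the authors prepared 10x Genomics 3′ libraries and made UMI count matrices with Cell Ranger 3.1.0, and their notes also name Seurat 4.1.1. The deposited values are whole-number counts per gene and barcode, not normalised. The methods name GRCm39 and the submitters' notes GRCm39 and mm10, so the build used for counting is unsettled, and the coordinates printed are GRCm38 (GENCODE M21).

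The cell filter asked for a minimum of 500 genes and 1000 UMIs per barcode and a mitochondrial share of 15% or less. Likely doublets, scored against simulated pairs, were removed at 0.8% per 1000 barcodes. Cells were clustered by Leiden on 30 principal components of 2000 variable genes (resolution 1), leaving out the 8 genes and all gene lists. A cluster was called X-like from at least 3 of a class's markers, by a scoring rule set after marker levels were seen, and clusters are called by their first leading gene. The software was Python 3.11.15 with scipy 1.17.1 and numpy 2.4.6 for counts and intervals, pandas 2.3.3, leidenalg 0.10.2 on igraph 0.11.9 and scikit-learn 1.9.0 for clustering, and matplotlib 3.10.9 for plots, and the steps were tested on simulated data.

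UMIs were summed per class. A gene was called at 2-fold or more in CPM with at least 20 UMIs over both classes. Intervals are exact (Poisson, conditional binomial for ratios, Clopper-Pearson for shares). Alike genes were the 3 with the highest correlation, and from each list the genes past 2-fold were counted. The members and lists were chosen with earlier results of these data known. Beside 12 other settings, 3 were added after the data were seen, which left out clusters of low depth, left out SC-like clusters led by cycling genes, and gave each P2 HC-like cluster the same weight. The Atoh1 bins and co-detection were also added after the data were seen.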

Additional observations from a re-analysis of the deposited data

Results flagged for a closer look

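For some members the direction of a difference was not the same in 2 ages or classes. These contrasts were picked out because their counting intervals lay on opposite sides of 1, and with 1 library at each age the differences between them were not tested. The ratio of Cdkn1c in HC-like over nonsensory cells was 2.90 at P2 and 0.801 at E14. The ratio of Cdkn1a at P2 over E14 was 0.695 in HC-like cells, 1.55 in SC-like cells and 0.774 in nonsensory cells. Of the 1607 Cdkn1a UMIs of E14 nonsensory cells, 755 came from the Pyy-led cluster of 69 cells. The nonsensory direction thus leans on that cluster, and no ratio without it is given. The ratio of Cdkn1c at P2 over E14 was 3.17 in HC-like cells, 1.55 in SC-like cells and 0.876 in nonsensory cells. The ratio of Btg2 at P2 over E14 was 0.943 in SC-like cells and 1.19 in nonsensory cells. Some of these contrasts did not hold under the alternatives. With doublets kept, Cdkn1a at P2 over E14 was at 1.34 in HC-like cells, on the same side of 1 as in SC-like cells (1.67). Cdkn1c in SC-like cells was at 0.885 with doublets kept, 0.922 with fewer removed and 0.772 with classes set by markers of single cells, on the same side as in nonsensory cells. Btg2 in SC-like cells was at 1.08 with doublets kept and 1.06 with fewer removed, also on the same side as in nonsensory cells. Cdkn1c in HC-like over nonsensory cells stayed between 2.59 and 4.46 at P2 and between 0.577 and 0.867 at E14 over the alternatives.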

How the results depend on the processing

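Under the alternatives, 88 counts of members past 2-fold stayed within 1.5 times the main count and 17 did not. Between HC-like and SC-like cells at E14 the count was 6, with 2 when doublets were kept and 2 at a 3-fold limit, and at P2 it was 5, with 2 at a 3-fold limit. For P2 over E14 in HC-like cells it was 2, with 1 for classes set by markers of single cells and 1 at a 3-fold limit. For P2 over E14 in SC-like cells it was 1, with 2 for a stricter cell filter, doublets kept, fewer doublets removed, a coarser clustering and no SC-like clusters led by cycling genes, and 0 at a minimum of 100 UMIs. In nonsensory cells it was 2, with 1 for a stricter cell filter, doublets kept, fewer doublets removed, a coarser or finer clustering and a 3-fold limit. The cause was not tested. Of the ratios of single members, 462 stayed within their counting interval and 237 did not, and the main values that passed the limit kept their direction. No paired analysis was possible because each age had 1 library, which also left no replicate to leave out. Depth limited Cdkn2b, with 13 UMIs over HC-like and SC-like cells at P2, below the minimum.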
